A study of Mus musculus with 11 samples.

Results

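The immediate early genes described here are Egr1, Fos, Fosb, Jun, Junb, Arc, Npas4, Nr4a1, Nr4a3 and Ier2, 10 of the 25827 genes in the count tables, taken by symbol and not by any measured value. They were measured by single-nucleus RNA sequencing of hindbrain tissue from male Il12rb2fl/fl mice of 8 to 12 weeks, all of which carried floxed alleles of Il12rb2, the IL-12-specific receptor subunit. The mice labelled NestinCre also carried NestinCre/+, a recombinase driven by the Nestin promoter in neural progenitors and therefore active in neurons and in most glia, whereas fl mice carried no Cre. EAE mice were immunized with MOG35-55 peptide in complete Freund's adjuvant with pertussis toxin and taken at day 10, and naive mice were left untreated. There were 4 fl EAE, 4 NestinCre EAE and 2 fl naive samples and 1 NestinCre naive sample, 1 library each, sequenced in 3 runs: EAE replicates 1 to 3 of both genotypes in run 1, both EAE replicates 4 with fl naive 2 in run 2, and fl naive 3 with NestinCre naive 2 in run 3. The tissue was cerebellum, brainstem of 1 hemisphere and upper cervical cord, from which Hoechst-positive nuclei were sorted.

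Immediate early genes are switched on within minutes of a stimulus, without new protein synthesis, by signals such as calcium entry and growth factor signalling that activate factors already bound at their promoters. In neurons they are the standard marker of recent activity, and Npas4 in particular responds to calcium entry. In glia and immune cells several of them, Junb and Fos among them, are part of the response to cytokines and to tissue handling, so a level in frozen nuclei records the last events before the tissue was frozen.

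Egr1 encodes a zinc-finger factor, Fos, Fosb, Jun and Junb encode subunits of the AP-1 factor, Npas4 encodes a factor of the bHLH-PAS family, Nr4a1 and Nr4a3 encode orphan nuclear receptors, Arc encodes a synaptic protein that acts in receptor endocytosis, and Ier2 encodes a small nuclear protein. The cyclic AMP response element is one of the best known switches of this family, and its core, TGACG, is shown in the windows of all members that have one, so that the number and place of the matches can be seen. The windows run from 250 bases before to 50 bases after the annotated start of the gene in RefSeq on GRCm38.p6, whereas the counts were made on GRCm39. They are written 5′ to 3′ on the strand of the gene, with each core, TGACG or its reverse complement CGTCA, in capitals.

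Fos, plus strand, chr12:85473640-85473939: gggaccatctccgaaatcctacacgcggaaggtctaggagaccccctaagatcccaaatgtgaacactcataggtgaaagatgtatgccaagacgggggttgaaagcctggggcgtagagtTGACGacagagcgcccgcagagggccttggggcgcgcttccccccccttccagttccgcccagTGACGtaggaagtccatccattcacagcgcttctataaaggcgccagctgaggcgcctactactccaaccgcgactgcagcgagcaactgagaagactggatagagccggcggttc
Fosb, minus strand, chr7:19309996-19310295: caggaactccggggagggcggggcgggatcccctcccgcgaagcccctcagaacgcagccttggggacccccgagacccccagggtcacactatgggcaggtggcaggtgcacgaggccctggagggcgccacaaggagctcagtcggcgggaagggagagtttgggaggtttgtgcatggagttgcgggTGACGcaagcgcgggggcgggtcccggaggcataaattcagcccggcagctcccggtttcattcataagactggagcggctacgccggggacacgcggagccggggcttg
Junb, minus strand, chr8:84978699-84978998: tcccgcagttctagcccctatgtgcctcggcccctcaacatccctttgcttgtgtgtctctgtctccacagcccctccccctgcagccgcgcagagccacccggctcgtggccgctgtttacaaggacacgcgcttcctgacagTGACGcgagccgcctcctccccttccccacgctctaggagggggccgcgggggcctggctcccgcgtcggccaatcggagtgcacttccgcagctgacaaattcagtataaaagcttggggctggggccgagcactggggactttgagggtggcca
Npas4, minus strand, chr19:4989922-4990221: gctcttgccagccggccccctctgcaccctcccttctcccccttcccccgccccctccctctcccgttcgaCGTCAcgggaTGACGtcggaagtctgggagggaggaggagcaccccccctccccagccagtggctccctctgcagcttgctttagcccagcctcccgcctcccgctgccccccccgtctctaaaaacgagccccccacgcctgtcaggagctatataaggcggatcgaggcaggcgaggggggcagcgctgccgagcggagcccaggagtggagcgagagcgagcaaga
Nr4a1, plus strand, chr15:101266596-101266895: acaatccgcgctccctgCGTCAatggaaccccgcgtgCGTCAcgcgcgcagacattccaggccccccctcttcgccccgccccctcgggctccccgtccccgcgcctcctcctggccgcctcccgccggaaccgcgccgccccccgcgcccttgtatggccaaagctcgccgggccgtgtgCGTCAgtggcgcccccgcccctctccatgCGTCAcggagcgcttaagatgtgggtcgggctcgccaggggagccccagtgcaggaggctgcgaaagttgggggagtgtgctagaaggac
Nr4a3, plus strand, chr4:48045055-48045354: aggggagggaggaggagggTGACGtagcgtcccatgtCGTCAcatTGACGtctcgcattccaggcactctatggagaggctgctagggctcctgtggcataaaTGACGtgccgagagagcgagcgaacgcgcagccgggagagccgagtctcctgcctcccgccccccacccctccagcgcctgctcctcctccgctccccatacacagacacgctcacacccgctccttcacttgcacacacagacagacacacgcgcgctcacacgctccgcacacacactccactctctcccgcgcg
Jun, minus strand, chr4:95052173-95052472: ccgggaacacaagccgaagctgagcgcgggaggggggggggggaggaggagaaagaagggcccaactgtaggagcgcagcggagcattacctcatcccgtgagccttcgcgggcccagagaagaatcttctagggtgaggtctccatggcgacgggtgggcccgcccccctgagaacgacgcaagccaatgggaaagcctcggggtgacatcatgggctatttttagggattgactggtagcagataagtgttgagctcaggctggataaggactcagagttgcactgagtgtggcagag

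A window was found for 7 of the 10 members, and 6 of those 7 held at least 1 core on either strand. Nr4a1 and Nr4a3 held 4 each, Fos and Npas4 held 2 each, Fosb and Junb held 1 each, and Jun held 0. Of all 32851 RefSeq promoter windows of this length, 20.8% held at least 1. The cores of Fos began 129 and 66 bases before the start of the gene, and those of Npas4 began 179 and 169 bases before it. The full palindrome TGACGTCA, which contains the core on both strands, was in 0 of the 7 windows and in 1.79% of all windows. The windows were also searched for an AP-1 site (TGANTCA), an EGR site (GCGNGGGCG) and the element named CArG box. The AP-1 site and the CArG box were in 0 of the 7 windows, and in 7.81 and 1.63% of all windows. The EGR site was in 2 of the 7, Fosb and Nr4a1, and in 5.55% of all windows. These are matches of letters in 1 fixed window and say nothing of binding.

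The deposited tables held 189709 barcodes, of which 159468 nuclei were kept, 11651 to 18570 per library, with 35677518 to 71438332 UMIs (unique molecular identifiers, 1 for each captured RNA molecule) per library. Nuclei were clustered and sorted by marker genes into 21 classes. One of these met cholinergic markers but was led by Tph2, Slc6a4 and Slc6a2, genes of serotonin and noradrenaline neurons, and is called here by those genes. Of the kept nuclei 3.98% stayed unnamed, and granule cells, the small excitatory neurons of the cerebellum, made up 67.1%. Counts were summed per library and class, and a level is given as CPM, the UMIs of a gene per 1000000 UMIs of that class in that library. In sums over a class, fewer nuclei with the RNA and less RNA per nucleus cannot be told apart. Il12rb2 itself stood at 11.0 to 16.6 CPM in fl EAE and 7.91 to 16.9 CPM in NestinCre EAE libraries over all nuclei, and since it was counted over the whole gene, introns included, it does not check the deletion of a part of it. Infiltrating immune nuclei (phagocyte, neutrophil and T or NK classes) made up 0.0749 to 0.229% of kept nuclei in fl EAE libraries and 2.96, 1.24, 1.76 and 0.312% in NestinCre EAE 1 to 4, and 0.0628 to 0.108% in naive libraries.

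Levels were ranked over the 13 classes with at least 10 nuclei in every library, and each order given here holds within those 13. Most members were spread over many classes, and 2 of 10 had a highest class that stood clear of the next over the 11 libraries (exact two-sided sign-flip test on the CPM difference, adjusted over the 10 members). Nr4a3 was highest in granule cells, at 27.8 ± 26.3 CPM (SD, n = 11), against 16.3 ± 26.6 CPM in molecular layer interneurons, the inhibitory neurons of the cerebellar molecular layer. It was higher in granule cells than in these interneurons in 11 of 11 libraries (exact p = 0.000977, adjusted 0.00977), and granule cells were the highest of the 13 classes in 8 of 11. The highest and the next class of each member were picked by their means in the same libraries. In the 8 EAE libraries alone neither Nr4a3 nor Junb passed (sign-flip adjusted p = 0.0781 and 0.156). Nr4a3 was higher in granule cells in 8 of 8, at the smallest p that 8 libraries allow, 0.00781. After adjustment over 10 members that p could not pass for 1 member alone, so this does not test its order. Junb was highest in microglia, the resident macrophages of the brain, at 52.2 ± 21.0 CPM against 20.9 ± 27.9 CPM in leptomeningeal cells or fibroblasts, was higher than there in 9 of 11 libraries (exact p = 0.00391, adjusted 0.0195), and was highest in microglia in 8 of 11.

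For the other 8 members the top of the order did not separate beyond the spread of the libraries. Npas4 was highest in unipolar brush cells, excitatory interneurons of the cerebellum, at 13.8 ± 10.0 CPM against 6.65 ± 1.74 CPM in inhibitory neurons (higher in 9 of 11 libraries, exact p = 0.0195, adjusted 0.0651). Unipolar brush cells numbered only 17 to 50 nuclei per library. Nr4a1 was also highest in unipolar brush cells, at 41.9 ± 16.2 CPM against 32.1 ± 19.7 CPM in granule cells (exact p = 0.141, adjusted 0.281). Fos was highest in molecular layer interneurons at 18.9 ± 21.2 CPM, with granule cells next at 14.2 ± 11.8 CPM (exact p = 0.227, adjusted 0.378).

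Arc had its highest mean outside neurons. It stood at 7.30 ± 2.44 CPM in mature oligodendrocytes, the myelinating glia, and at 5.22 ± 1.89 CPM in excitatory neurons (higher in 8 of 11 libraries, exact p = 0.0576, adjusted 0.144), with 2.79 ± 0.668 CPM in granule cells. Egr1 and Jun had their highest means in leptomeningeal cells or fibroblasts, at 22.0 ± 30.0 and 30.1 ± 21.9 CPM, in a class of 14 to 53 nuclei per library, and neither passed the test against the next class (exact p = 0.576 and 0.529, both 0.576 adjusted over the 10 members). Of the 13 classes, Purkinje cells held the lowest mean of both Egr1, at 2.53 CPM, and Arc, at 0.119 CPM.

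Several sparser classes, which had under 10 nuclei in at least 1 library and were not ranked, held higher means from few UMIs. Junb stood at 94.8 ± 85.1 CPM in neutrophils (67 UMIs over all libraries), at 80.9 ± 79.5 CPM in infiltrating phagocytes (99 UMIs) and at 76.0 ± 71.7 CPM in endothelial cells (42 UMIs), all above its mean in microglia. Nr4a3 stood at 38.3 ± 44.1 CPM in the nuclei led by Tph2, Slc6a4 and Slc6a2 (72 UMIs), above its mean in granule cells. In endothelial cells Ier2 stood at 75.3 CPM (36 UMIs), Jun at 53.3 CPM (26 UMIs) and Nr4a1 at 43.1 CPM (18 UMIs), each above its highest ranked class. The same held for Fos in infiltrating phagocytes, at 23.1 CPM (27 UMIs), for Egr1 in neutrophils, at 25.9 CPM (18 UMIs), and for Npas4 in T or NK cells, at 27.6 CPM from 3 UMIs. Arc had 0 UMIs in border-associated macrophages, infiltrating phagocytes, neutrophils, newly formed oligodendrocytes and T or NK cells.

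**Figure D1:**
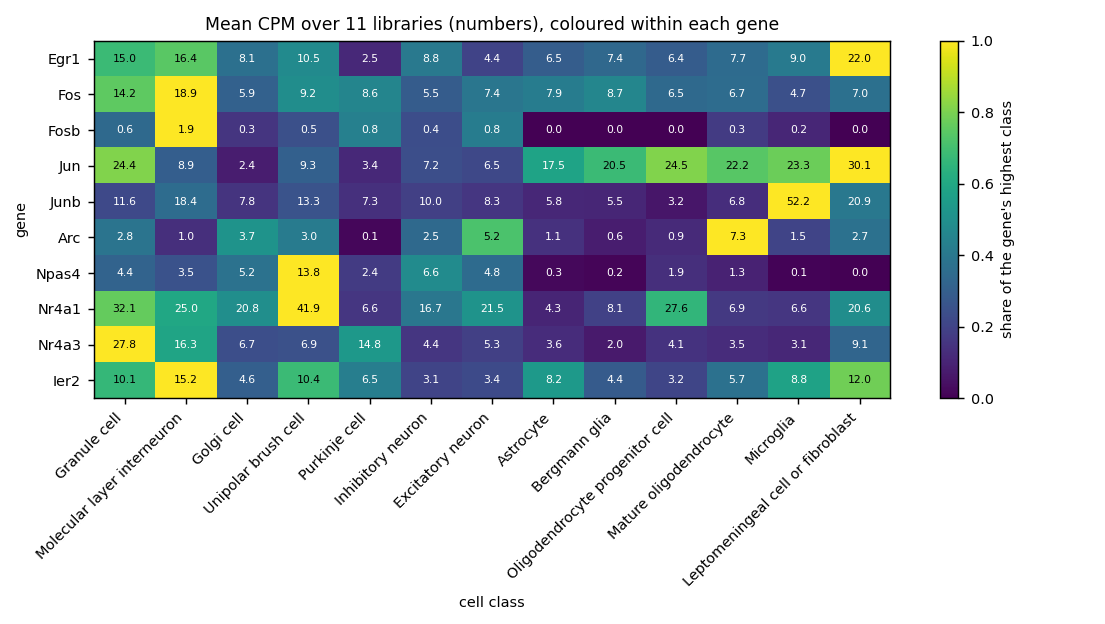
Mean level of each member (rows) in 13 cell classes (columns), in CPM over 11 libraries, as the number in each cell. Colour is the share of that gene's own highest class, so Nr4a3 is brightest in granule cells and Junb in microglia, at 27.8 and 52.2 CPM.

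RNA released from broken cells can enter every droplet, so the members were set beside Gabra6, a receptor subunit of granule cells that other classes should lack. In molecular layer interneurons Gabra6 stood at 4.15 to 9.30% of its granule cell level, whereas Egr1 stood at 54.8 to 257%, Fos at 30.8 to 275% and Junb at 68.0 to 358% of theirs, above Gabra6 in 11 of 11 libraries each. Gabra6 follows free RNA of granule cells only. Junb stood at 52.2 CPM in microglia against 11.6 CPM in granule cells, so free Junb RNA from other classes is not covered by it. Nr4a3 in these interneurons stood at 3.32 to 98.2% and above Gabra6 in 10 of 11 libraries. In mature oligodendrocytes Gabra6 stood at 7.90 to 26.2% of the granule level, and Arc stood at 124 to 478%, above it in 11 of 11 libraries. Nr4a3 in oligodendrocytes, at 5.86 to 39.8%, was above Gabra6 in 5 of 11 libraries and at or below it in the others, so its level there was not separated from background.

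Within 1 class the members differed widely between libraries of the same group. In granule cells Fos stood at 18.0, 11.5, 3.84 and 19.6 CPM in fl EAE 1 to 4 and, in the same order for NestinCre EAE, at 37.0, 32.9, 7.33 and 13 CPM. It stood at 2.97 and 9.27 CPM in fl naive 2 and 3 and at 1.28 CPM in NestinCre naive 2. NestinCre EAE 1 and 2 were the highest of all 11 libraries, while the other NestinCre EAE libraries lay within the range of fl EAE.

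Nr4a3 in granule cells stood at 19.6, 20.04, 11.0 and 63.8 CPM in fl EAE 1 to 4 and, in the same order for NestinCre EAE, at 83.7, 50.4, 9.39 and 23.3 CPM. The naive values were 5.18 and 15.7 CPM in fl naive 2 and 3 and 4.15 CPM in NestinCre naive 2. The EAE groups overlapped, and fl EAE 4 was the library that stood away from its group. Nr4a1 in granule cells stood at 29.8, 27.7, 14.0 and 50.3 CPM in fl EAE and at 77.4, 46.0, 20.8 and 36.8 CPM in NestinCre EAE, with the same 3 libraries at the top. It stood at 11.4, 23.7 and 15.1 CPM in the fl naive libraries 2 and 3 and the NestinCre naive library.

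Npas4 in granule cells stood at 6.25, 1.64, 1.06 and 6.44 CPM in fl EAE 1 to 4 and, in the same order for NestinCre EAE, at 13.6, 5.75, 2.54 and 4.45 CPM. It stood at 3.03, 2.68 and 0.717 CPM in the fl naive libraries 2 and 3 and the NestinCre naive library, and the groups overlapped. Fosb was the sparsest member, at 0.151 to 2.36 CPM over the 11 libraries and 169 granule cell UMIs in all.

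Jun and Arc were the steadiest members. Jun in granule cells stood at 18.8 to 35.6 CPM over the 11 libraries and Arc at 2.06 to 4.03 CPM, and both were highest in fl naive 3 and lowest in NestinCre EAE 1. Ier2 stood at 4.79 to 15.9 CPM, highest in fl naive 3 and lowest in NestinCre naive 2. Across the 11 libraries Nr4a1 and Nr4a3 in granule cells went together with a Pearson correlation of 0.96 and Fos and Nr4a3 with 0.94, whereas Fos and Jun had -0.50. These are descriptions over 11 libraries in which both genes share depth and handling.

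**Figure D2:**
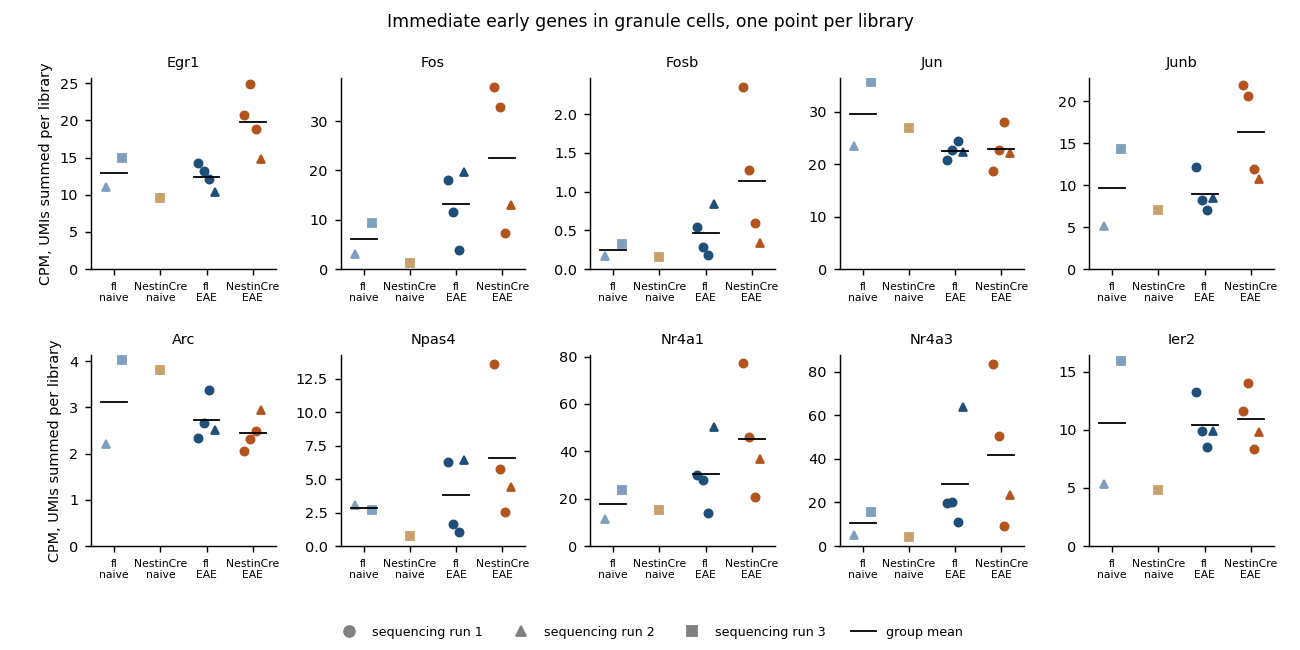
Level of each member in granule cells, in CPM (y axis, from 0), by group (x axis), with 1 point per library, the marker giving the sequencing run and the line the group mean. Fos, Fosb, Npas4, Nr4a1 and Nr4a3 have NestinCre EAE 1 at the top, at 37.0 CPM for Fos and 83.7 CPM for Nr4a3, while Jun stays between 18.8 and 35.6 CPM.

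The classes of a library were then set beside each other, by the summed CPM of the 10 members in each of 13 classes against the median library of that class. NestinCre EAE 1 and NestinCre EAE 2 lay above the class median in 13 of 13 classes each, and were among the 2 highest libraries in 10 and 11 classes. fl EAE 3 lay below it in 12 of 13 classes and above it in 0. fl EAE 2 lay below in 11 classes and fl naive 2 in 10. The other 6 libraries were mixed, with 4 to 7 classes above the median. Every class counted alike, although the lowest sum was 2 UMIs in leptomeningeal cells or fibroblasts and 3 UMIs in unipolar brush cells.

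The movement of NestinCre EAE 1 was 1.93 on the log2 scale in molecular layer interneurons and 0.0126 in Golgi cells, the inhibitory interneurons of the granular layer, with a median of 0.64 over the classes. The median was 0.67 in NestinCre EAE 2, -0.52 in fl EAE 3 and -0.40 in NestinCre naive 2. With each member left out of the sum in turn, NestinCre EAE 1 and 2 remained above the median in 11 to 13 of 13 classes each.

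Not all classes followed granule cells to the same degree. The Pearson correlation of the summed members with granule cells over 11 libraries was 0.89 in molecular layer interneurons, 0.87 in Purkinje cells and 0.83 in inhibitory neurons. It was 0.32 in microglia, 0.38 in oligodendrocyte progenitor cells and 0.39 in unipolar brush cells. The sums there held 12 to 149, 16 to 36 and 3 to 48 UMIs per library, in that order. They held 10 to 118 UMIs in Purkinje cells and at least 315 in inhibitory neurons. The part of counting noise in the lower correlations was not tested. Summed members in molecular layer interneurons ran from 33.9 CPM in fl naive 2 to 375 CPM in NestinCre EAE 1, the widest range of the well-filled classes, against 69.9 to 289 CPM in granule cells of the same libraries. Classes of a library share handling, depth and free RNA, so these correlations carry no test.

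**Figure D3:**
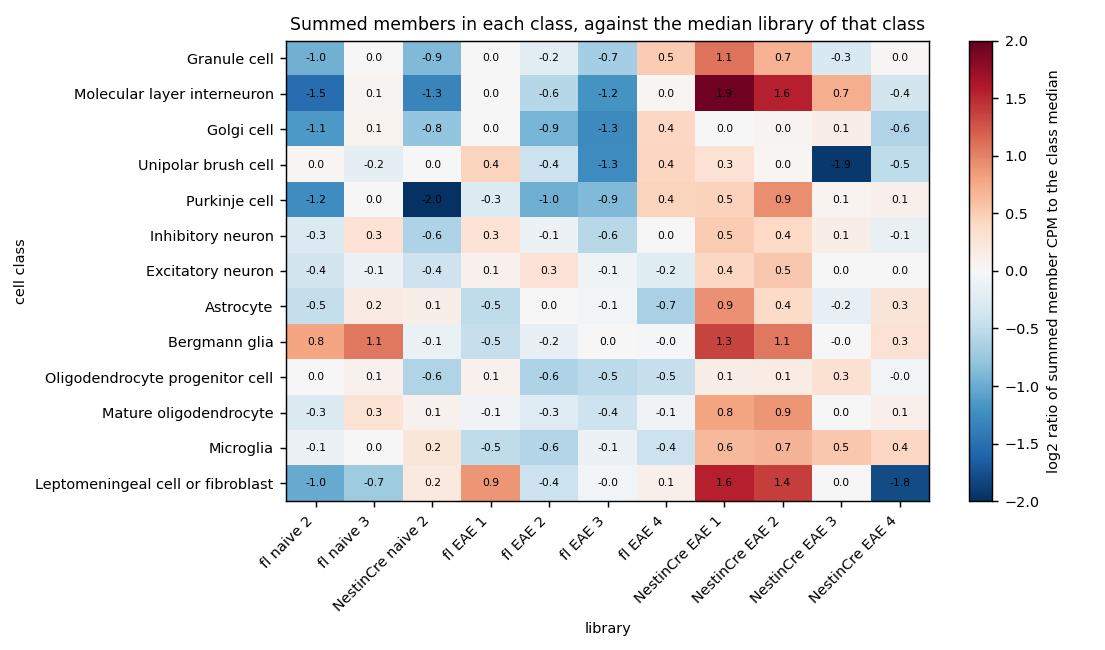
Summed CPM of the 10 members in 13 classes (rows) and 11 libraries (columns), as the log2 ratio to the median library of that class. The columns of NestinCre EAE 1 and 2 are above 0 in all 13 rows, and that of fl EAE 3 is below 0 in 12.

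Depth, mitochondrial share and heat shock RNA were also compared. The median UMI count per kept nucleus was 2574 in NestinCre EAE 1 and 1820 in NestinCre EAE 2, the lowest of the 11 libraries, which reached 3241. The mean mitochondrial share was 0.369% and 0.703% in them and 0.262 to 0.729% over all libraries. Only NestinCre naive 2, at 0.729%, had a higher share than NestinCre EAE 2. Heat shock genes summed to 488 and 605 CPM in NestinCre EAE 1 and 2, within 446 to 702 CPM over all libraries. With infiltrating immune nuclei at 2.96 and 1.24%, NestinCre EAE 1 and 2 lay above the median in 13 of 13 classes each, NestinCre EAE 3, at 1.76%, in 6 and NestinCre EAE 4, at 0.312%, in 7. Gabra6 in mature oligodendrocytes, a measure of free RNA from granule cells, stood at 154 and 234 CPM in NestinCre EAE 1 and 2, the 2 highest of the 11 libraries, with 150 CPM in fl naive 3 and 56.2 CPM in fl naive 2, the lowest. Whether handling, free RNA or infiltration has a part in the shared movement was not tested.

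The genotype comparison in EAE mice asked whether loss of Il12rb2 in neural cells goes with another level of the members during inflammation. Of 39 pairs of member and class that could be tested in 14 classes, 4 were called, all higher in NestinCre EAE (edgeR quasi-likelihood test with sequencing run in the model, Benjamini-Hochberg adjusted p under 0.05 over all genes of a class). Of all genes tested in the same classes 0.865% were called in either direction. The 4 were Egr1 in granule cells, Egr1 and Junb in molecular layer interneurons, and Junb in microglia. In the GRCm39 annotation (GENCODE vM39) Egr1 lies on the plus strand at chr18:34992876-34998049 and Junb on the minus strand at chr8:85701113-85705359, and UMIs were counted over exons and introns of each. In 35 of the 39 pairs the fitted difference was above 0, and the share of all genes above 0 is not given here. The pairs share the same libraries, so they are not independent. An unadjusted edgeR p under 0.05 was found in 11 pairs and 8.00% of all genes. With NestinCre EAE 1 and 2 left out, Fos, Fosb, Npas4, Nr4a1, Nr4a3 and Ier2 in granule cells fell below 0, from -0.23 for Fosb to -1.19 for Nr4a3. These 2 libraries were chosen after the data were seen, and the summed members in granule cells were highest in them. Leaving them out therefore lowers the difference in part by that choice, here and below. In all nuclei together 0 of 10 members were called by edgeR against 3.3% of genes called higher, 2 members had an unadjusted p under 0.05, and DESeq2 called 2, Egr1 and Junb. Within run 1 edgeR called the same 2 in all nuclei, Egr1 at 0.82 (adjusted p = 0.0142) and Junb at 1.13 (adjusted p = 0.0257). Fits without fl EAE 4 or NestinCre EAE 4 add nothing to this, here and below. In them the run term takes up the run 2 EAE library that is left, so they rest on run 1 alone. Junb in all nuclei was also called with the replicate number as a block, at 0.93 (edgeR adjusted p = 0.0432). The sums over all nuclei include infiltrating immune nuclei, which were more frequent in NestinCre EAE libraries. Their part in the Egr1 and Junb differences in all nuclei was not tested.

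Egr1 in granule cells stood at 14.2, 13.1, 12.1 and 10.3 CPM in fl EAE 1 to 4 and, in the same order for NestinCre EAE, at 20.7, 24.9, 18.8 and 14.8 CPM. It stood at 11.1 and 14.9 CPM in fl naive 2 and 3 and at 9.58 CPM in NestinCre naive 2. The EAE groups did not overlap, and their means were 12.4 ± 1.67 CPM (SD, n = 4) and 19.8 ± 4.19 CPM (SD, n = 4). The log2 fold change was 0.64 ± 0.12 (SE, edgeR adjusted p = 0.0345), where 1.17% of genes were called higher in granule cells. Within run 1 it was 0.74 (adjusted p = 0.0216). The call was lost with no run term (adjusted p = 0.0785) and with the replicate number as a block. It was also lost without fl EAE 1 (adjusted p = 0.115), fl EAE 2 (0.132), NestinCre EAE 1 (0.0906), 2 (0.0817) or 3 (0.0611). With NestinCre EAE 1 and 2 both left out the log2 fold change stood at 0.46 (adjusted p = 0.406).

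Egr1 in molecular layer interneurons had the largest of the called differences. It stood at 10.2, 8.49, 6.94 and 7.05 CPM in fl EAE 1 to 4, from 19 to 29 UMIs each. In NestinCre EAE 1 to 4 it stood at 36.6, 30.9, 48.4 and 10.3 CPM, from 39 to 82 UMIs. The groups touched without overlapping, because the run 2 library NestinCre EAE 4 stood just above fl EAE 1. The naive levels were 6.35 and 8.17 CPM for fl and 6.71 CPM for NestinCre. The log2 fold change was 1.80 ± 0.27 (SE, edgeR adjusted p = 0.00577), where 0.148% of genes were called higher in these interneurons. It was 2.20 within run 1 (adjusted p = 7.6e-05), and it was called without each EAE library in turn. The call was lost with no run term, at 1.91 (adjusted p = 0.0666), and without NestinCre EAE 1 and 2, at 1.86 (adjusted p = 0.0503).

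Junb in molecular layer interneurons stood at 18.3, 9.65, 4.75 and 8.02 CPM in fl EAE 1 to 4 and, in the same order for NestinCre EAE, at 40.7, 38.2, 42.8 and 11.6 CPM. The groups overlapped, since NestinCre EAE 4 was below fl EAE 1. It stood at 5.56 and 16.3 CPM in fl naive 2 and 3 and 6.71 CPM in NestinCre naive 2. The log2 fold change was 1.62 ± 0.30 (SE, edgeR adjusted p = 0.036) and 1.97 within run 1 (adjusted p = 0.00155). DESeq2 did not call it (adjusted p = 0.176). The edgeR call was lost with no run term (adjusted p = 0.159) and with the replicate number as a block. It was also lost without fl EAE 2 (adjusted p = 0.177), NestinCre EAE 1 (0.0713), 2 (0.108) or 3 (0.0785). Without NestinCre EAE 1 and 2 together the log2 fold change stood at 1.49 (adjusted p = 0.298).

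The other members in molecular layer interneurons were not called. Fos stood at 19.2, 8.88, 1.46 and 14.3 CPM in fl EAE 1 to 4 and, in the same order for NestinCre EAE, at 53.6, 64.9, 20.1 and 10.0 CPM (log2 fold change 1.59 ± 0.51 SE, edgeR adjusted p = 0.37). Nr4a3 stood at 4.69, 3.86, 0.365 and 26.7 CPM in fl EAE and at 82.2, 49.3, 0.629 and 3.16 CPM in NestinCre EAE (1.75 ± 0.94 SE, edgeR adjusted p = 0.747). NestinCre EAE 1 and 2 held the high values of both, while NestinCre EAE 3, which was highest for Egr1 and Junb, held 1 UMI of Nr4a3. Nr4a1 had a log2 fold change of 1.70 ± 0.52 (SE, edgeR adjusted p = 0.357). Within run 1 all 3 were called by edgeR, Fos at 2.37 (adjusted p = 0.0119), Nr4a1 at 2.63 (0.00525) and Nr4a3 at 4.04 (0.0146), and fl EAE 4 of run 2 lay above NestinCre EAE 4 for each.

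Junb in microglia stood at 30.2, 16.6, 50.4 and 27.0 CPM in fl EAE 1 to 4, from 3 to 23 UMIs each, and, in the same order for NestinCre EAE, at 78.1, 75.3, 73.6 and 61.4 CPM, from 26 to 69 UMIs. The EAE groups did not overlap, but the naive libraries lay between and within them, at 42.1 and 54.7 CPM in fl naive 2 and 3 and 65.2 CPM in NestinCre naive 2. The log2 fold change was 1.09 ± 0.28 (SE, edgeR adjusted p = 0.0206), where 4.49% of genes were called higher in microglia. It was 1.07 within run 1 (adjusted p = 0.0688), DESeq2 gave an adjusted p of 0.0534, and the edgeR call was lost without fl EAE 1 (0.0731), 2 (0.0654) or 4 (0.0616), or NestinCre EAE 1 (0.053) or 4 (0.0703). Of these fits, those without fl EAE 4 or NestinCre EAE 4 rest on run 1 alone. Without NestinCre EAE 1 and 2 the log2 fold change stood at 1.08 (adjusted p = 0.104).

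**Figure D4:**
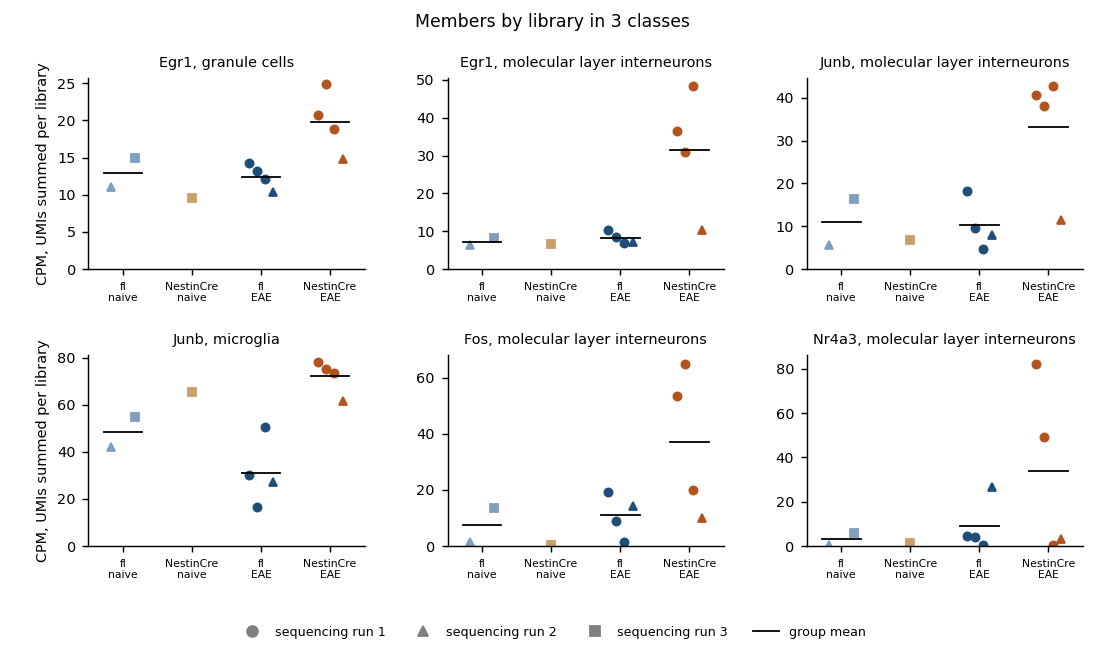
Level in CPM (y axis, from 0) of the 4 called pairs of member and class, and of Fos and Nr4a3 in molecular layer interneurons, by group (x axis), 1 point per library, the marker giving the run. In molecular layer interneurons the run 2 library of NestinCre EAE (triangle) lies near the fl EAE libraries for Egr1 and Junb, at 10.3 and 11.6 CPM, and the 3 run 1 libraries lie above 30 CPM.

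Markers of infiltrating phagocytes and neutrophils reached higher sums in NestinCre EAE libraries in the same classes. The 8 infiltrating phagocyte markers summed to 4.95 to 21.8 CPM in granule cells of fl EAE libraries and to 20.4 to 156 CPM in those of NestinCre EAE libraries, ranges that overlapped at their ends. In molecular layer interneurons they summed to 3.86 to 12.8 and 14.2 to 92.5 CPM, and in microglia to 11.0 to 39.4 and 59.6 to 220 CPM, with 0 of 8 markers at 0 in each class. The 7 neutrophil markers summed to 5.68 to 10.1 and 13.2 to 83.4 CPM in granule cells and to 4.63 to 7.78 and 10.3 to 41.5 CPM in the interneurons. In microglia they overlapped, at 431 to 632 and 452 to 809 CPM. The 8 T or NK cell markers stayed under 10 CPM in all 3 classes, and their ranges overlapped in each. Their part in the Egr1 and Junb differences was not tested.

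In other classes edgeR called no member by genotype in EAE over both runs. In mature oligodendrocytes Junb had a log2 fold change of 1.42 ± 0.37 (SE, edgeR adjusted p = 0.157), which DESeq2 called (adjusted p = 0.0398). The edgeR call was made within run 1, at 1.94 (adjusted p = 0.0413). The fits without fl EAE 4 (0.0426) or NestinCre EAE 4 (0.04) rest on run 1 alone as well. Nr4a1 there had a log2 fold change of 1.33 ± 0.54 (SE, edgeR adjusted p = 0.43). In inhibitory neurons, mostly of brainstem and cord, 9 members were tested and none was called by edgeR, 1 had an unadjusted p under 0.05 and none was called by DESeq2. There Egr1 differed by 0.21 on the log2 scale, with a 95% interval from -0.27 to 0.68. In astrocytes, Bergmann glia, oligodendrocyte progenitor cells, Golgi cells, unipolar brush cells, leptomeningeal cells and border-associated macrophages no member had counts enough to be tested.

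The comparison of EAE with naive mice, averaged over genotypes and with run in the model, rests on run 2 (fl EAE 4 and NestinCre EAE 4 against fl naive 2) and on the genotype pair of run 3. None of 55 pairs of member and class in 13 classes was called by edgeR, where 0.0349% of all genes tested were called, 15 pairs and 7.57% of all genes had an unadjusted p under 0.05, and DESeq2 called 1, Ier2 in granule cells. In all nuclei edgeR called no member, and DESeq2 called Ier2, at 1.68 on the log2 scale. The fitted difference was above 0 in 47 of 55 pairs. The share of all genes above 0 is not given here. The count filter let a pair in when 1 library passed it. Some pairs entered through a single EAE library, such as Egr1 in Golgi cells at 38.4 CPM in NestinCre EAE 3. Their sign was in part set by that entry. In granule cells all 10 members were above 0, with a median of 1.85 on the log2 scale against 0.000516 over all genes tested. These values also carry the naive genotype difference of run 3, which was below 0 for all 10 and so raised them. That difference is 1 library against 1. In run 2 alone Jun stood at 22.3 and 22.1 CPM in the EAE libraries against 23.5 CPM in fl naive 2.

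The granule cell differences were wide. Ier2 had a log2 fold change of 1.75 with a 95% interval from 0.86 to 2.65 (edgeR adjusted p = 0.542), Fos one of 4.03 with an interval from 0.86 to 7.21 (edgeR adjusted p = 0.578), and Nr4a3 one of 4.31 with an interval from 0.74 to 7.89 (edgeR adjusted p = 0.589). Jun had 0.12, with an interval from -0.38 to 0.63 (edgeR adjusted p = 0.921). The largest fitted differences lay outside granule cells, and edgeR called none of them. Nr4a3 had 8.78 in Purkinje cells (95% interval 4.68 to 12.9), where the naive libraries held 0, 10 and 1 UMIs of it. In molecular layer interneurons Nr4a3 had 6.07 (-0.55 to 12.7) and Fos had 5.68 (2.03 to 9.34). In run 2 alone both EAE libraries exceeded the naive library for Fos, Nr4a1 and Nr4a3 in granule cells, at 19.6 and 13 CPM against 2.97 CPM for Fos. That is 2 libraries against 1, with no test, and gave 2.12 on the log2(CPM + 1) scale.

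The naive genotype comparison set NestinCre naive 2 against fl naive 3 within run 3, 1 library each. By edgeR, with the spread taken from the other libraries, 0 of 55 pairs were called, where 0.0031% of all genes tested were called, 10 pairs and 4.07% of all genes had an unadjusted p under 0.05, and DESeq2 called 0. The fitted difference was below 0 in 44 of 55 pairs. In granule cells all 10 members were below 0, among them Ier2 at -1.66 with a 95% interval from -2.51 to -0.80 (edgeR adjusted p = 1). Ier2 stood at 15.9 CPM in fl naive 3 and 4.79 CPM in NestinCre naive 2, and at 5.34 CPM in fl naive 2, which was sequenced in run 2.

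The interaction, the genotype difference in EAE minus that in naive mice, was called in 0 of 55 pairs by edgeR, where 0% of all genes tested were called, with 17 pairs and 4.76% of all genes at an unadjusted p under 0.05, and 0 by DESeq2. Its naive part is 1 library of each genotype in run 3, so no spread comes from the NestinCre naive group and the intervals assume that it varies like the other groups. Egr1 in granule cells had an interaction of 1.21 on the log2 scale, with a 95% interval from 0.62 to 1.80 (edgeR adjusted p = 1), and Junb in molecular layer interneurons one of 2.82, with an interval from 1.28 to 4.35 (edgeR adjusted p = 1). The 4 comparisons share EAE or naive libraries, so their values are not independent.

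The share of nuclei holding a member was compared after each nucleus was thinned to 1000 UMIs, leaving out 141 to 1866 shallower granule nuclei per library. In granule cells 6.78% of nuclei in fl naive 2 held at least 1 UMI of any member (95% exact binomial interval 6.25 to 7.34%, counting error only) and 23.4% did in NestinCre EAE 1 (22.5 to 24.4%). The values were 12.4, 10.6, 8.10 and 16.0% in the 4 fl EAE libraries against 23.4, 18.5, 10.6 and 12.9% in those of NestinCre EAE, which overlap. In molecular layer interneurons they were 8.77, 5.77, 3.51 and 9.09% in fl EAE and 29.9, 25.7, 16.0 and 5.86% in NestinCre EAE. Gabra6 was found in 4.25 to 8.82% of those interneurons at the same thinned depth.

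Fos was found in 0.116 to 3.86% of thinned granule nuclei and Nr4a3 in 0.419 to 7.26%, with NestinCre EAE 1 at the top of both. Before thinning, at median depths of 1634 to 3035 UMIs per granule nucleus, these shares were 0.345 to 8.88% and 0.946 to 15.8%. Gabra6 was found in 50.0 to 61.4% of thinned granule nuclei. At least 2 members were found in 4.07% of granule nuclei in NestinCre EAE 1 and in 0.163% in NestinCre naive 2.

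**Figure D5:**
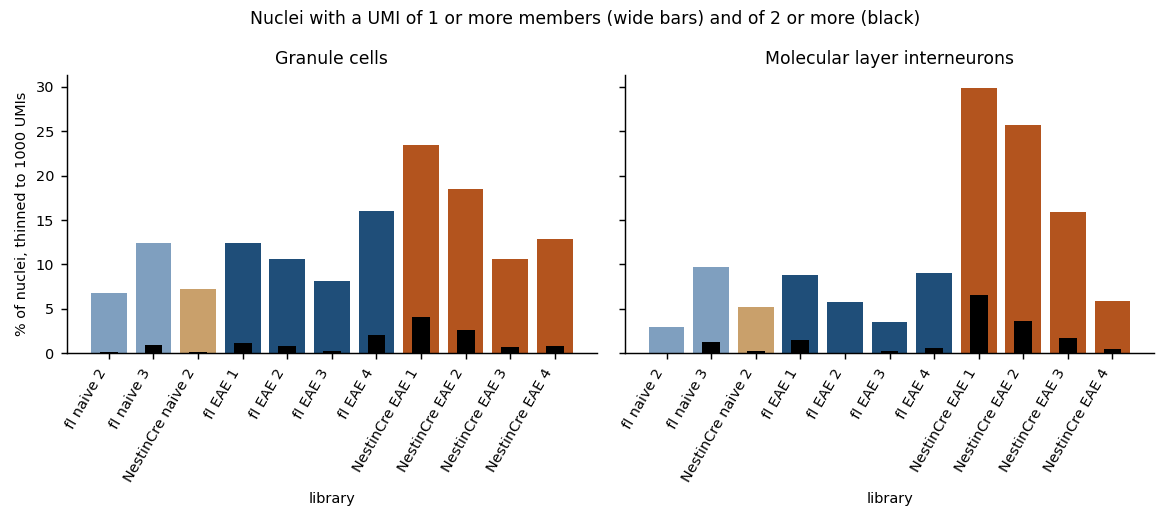
Percent of nuclei (y axis, from 0), thinned to 1000 UMIs, with a UMI of 1 or more members (wide bars, coloured by group) and of 2 or more (black), for each library (x axis) in granule cells and molecular layer interneurons. In molecular layer interneurons NestinCre EAE 1, 2 and 3 reach 29.9, 25.7 and 16.0%, and NestinCre EAE 4 lies at 5.86%.

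Nr4a3 and Nr4a1, and Fos and Nr4a3, tended to be found in the same granule nuclei. Other pairs of members are not given here. At the thinned depth Nr4a3 was found in 14.8% of nuclei with Nr4a1 and in 6.64% of those without it in NestinCre EAE 1, and in 15.3 and 4.69% in fl EAE 4. The share was higher in nuclei with Nr4a1 in 9 of 11 libraries, the exceptions being fl EAE 3 and NestinCre naive 2, which had 108 and 128 nuclei with Nr4a1. Fos was found more often in nuclei with Nr4a3 in 10 of 11 libraries, 7.53 against 3.57% in NestinCre EAE 1. Between Fos and Gabra6, taken as a pair with no known link, the ratio lay between 0.795 and 1.36. Nuclei of a library are not replicates, so these shares carry no test.

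Among granule cells the members were not evenly spread over the clusters, which were formed from the same nuclei and so give a description only. Over 10 clusters of at least 5000 nuclei, the summed members were highest in the cluster led by Gabra6, Pax6 and Gprc5c, at 193 CPM, and in one led by Svep1, Il16 and Eomes, at 191 CPM. The Gabra6 cluster was highest in fl EAE 1 and 3, NestinCre EAE 1 and 2 and NestinCre naive 2. The Eomes cluster was highest in the other libraries. The summed members were lowest in one led by Ltbp2, Tead4 and Svep1, at 103 CPM. The cluster at 193 CPM exceeded the one at 103 CPM in 11 of 11 libraries, 1.38 to 2.23 times. Nr4a3 stood at 53.1 CPM in the Eomes cluster and at 13.3 CPM in the lowest, whereas Egr1 stood at 14.4 and 14.8 CPM and Jun at 22.6 and 23.0 CPM. In the Gabra6 cluster Nr4a3 stood at 27.7 CPM, Egr1 at 23.5 CPM, Jun at 33.9 CPM and Ier2 at 19.0 CPM. Its nuclei had a median of 0.536 times the median UMIs of their library, the lowest of the 10 clusters.

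The cluster of granule nuclei led by the interferon-induced genes Gbp6, Serping1 and Igtp held 1250 nuclei. In the 3 libraries with at least 100 of its nuclei, NestinCre EAE 1, 3 and 4, the summed members stood at 226, 88.0 and 99.8 CPM in it. In the other granule nuclei of those libraries they stood at 296, 111 and 139 CPM, higher in 3 of 3. The other libraries held at most 44 of its nuclei each. In 5 of these, fl EAE 2, 3 and 4, NestinCre EAE 2 and fl naive 2, the members were higher in the cluster, from 2 to 23 UMIs, among them 310 against 220 CPM in NestinCre EAE 2.

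Other genes of the response were described from lists. Of 40 further rapid-response genes 36 were tested in granule cells by genotype in EAE. Of these 1 was called higher, where 1.17% of all granule cell genes were, and 0 lower, with a median log2 difference of 0.32 against -0.0059 over all genes. The called gene was Zfp36, which encodes a protein that destabilizes cytokine mRNAs, at 0.695, 0.695, 1.16 and 0.433 CPM in the 4 fl EAE libraries against 2.36, 2.26, 1.54 and 1.24 CPM with NestinCre (log2 fold change 1.32 ± 0.26 SE, edgeR adjusted p = 0.0452). In all nuclei 2 of 39 were called higher, Zfp36 and the stress-induced factor Atf3, where 3.3% of all genes were. The sums over all nuclei include the infiltrating immune nuclei, at most 0.229% in fl EAE libraries and up to 2.96% in those of NestinCre EAE, and their part in these differences and in that of Ptgs2 was not tested.

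Of 10 genes listed here as delayed response genes, 9 were tested in granule cells and 0 were called in either direction, with a median of 0.028. Whether each of them needs new protein synthesis was not tested. In all nuclei 1 of 10 was called higher, against the same 3.3%. It was Ptgs2, the inducible cyclooxygenase, at 0.147 ± 0.0506 CPM in fl EAE and 0.582 ± 0.18 CPM in NestinCre EAE (SD, n = 4 each; edgeR adjusted p = 0.00882). Of 19 upstream kinases and factors 0 were called in granule cells, with a median of 0.0028. In microglia 1 of 14 tested was called, Mef2c, a transcription factor of neurons and microglia, lower by genotype (log2 fold change -0.51 ± 0.14 SE, edgeR adjusted p = 0.0312), where 455 of 7282 genes were called in either direction. Of 9 heat shock genes 0 were called in granule cells, with a median of -0.14.

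The genes most like the members over the 11 libraries were picked by the Pearson correlation of log2(CPM + 1) with the mean of the standardised members, among 12018 genes in all nuclei and 11079 in granule cells with a mean of at least 5 CPM. In granule cells they were Rnf122 at 0.98, Tob2, Klf13 and Coq10b at 0.94 each and Nr4a2 at 0.92. Nr4a2, the remaining member of the Nr4a family of nuclear receptors, ran from 11.1 CPM in NestinCre naive 2 to 104 CPM in NestinCre EAE 1. In all nuclei they were Mxd1 at 0.95, Rnf19b at 0.93, Hipk3 and Coq10b at 0.92 and Tob2 at 0.91. All 5 in granule cells, like the summed members, were highest in NestinCre EAE 1.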

How the data were processed

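Per the file headers and the study's methods, the authors aligned reads with Cell Ranger (7.0.0 in the headers of run 1, 6.0.2 in those of runs 2 and 3) to GRCm39, introns included. They deposited filtered matrices of whole-number UMI counts for each of 11 samples, and no other unit was used. Barcodes with at least 200 genes (run 1) or 500 genes (runs 2 and 3) and under 5% mitochondrial UMIs were kept, the nuclei with the highest Scrublet doublet scores (0.8% per 1000 barcodes) and clusters over 40% doublets were removed, and the rest were clustered with Leiden in igraph 0.11.9 after Harmony integration. Classes were named from fixed markers, and the naming rule was tightened after clusters had been seen. A class needed 10 nuclei in every library of a comparison. Counts were summed per library and class and tested with edgeR 4.0.16 (quasi-likelihood, TMM, filterByExpr, Benjamini-Hochberg over all genes), with sequencing run in the model and 95% intervals from the t quantile of the fit's degrees of freedom. DESeq2 1.42.0 was an alternative. On simulated granule cell counts for the genotype comparison, with 15591 genes, 88.8% of changes of 1 and 100% of changes of 2 on the log2 scale were recovered, with 4 false calls. The simulation used the average spread of genes of like level and no run effect. It therefore does not give the recovery for members such as Nr4a3, at 28.6 ± 23.8 CPM (SD) in granule cells of fl EAE. Libraries held 40761007 to 86063464 UMIs, and library pairs shared 47 to 140 barcodes. The study describes its EAE samples as 4 male mice of each genotype. It describes the naive pair of run 3 as a NestinCre mouse and its control. Whether fl naive 2 came from another animal than fl naive 3 is not given in the sources used here, so the spread between these may be technical. Genes named by rule are the members, up to 3 called genes of each other list, and the 5 genes most correlated with the members. Gabra6, Il12rb2 and the leading genes of clusters are named as references or labels. The members and lists were chosen with earlier results of these data known.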

Additional observations from a re-analysis of the deposited data

Results flagged for a closer look

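Of 60 groups of 4 libraries looked at (10 members in granule cells, molecular layer interneurons and all nuclei, fl EAE and NestinCre EAE), 4 had a library set apart from the other 3, and chance alone flags about 1 in 20. Nr4a3 in fl EAE 4 stood at 63.8 CPM in granule cells, against 11.0 to 20.04 CPM in the other fl EAE libraries, and at 26.7 CPM in molecular layer interneurons, against 0.365 to 4.69 CPM. Junb in NestinCre EAE 4 stood at 11.6 CPM in molecular layer interneurons, against 38.2 to 42.8 CPM in the other NestinCre EAE libraries, all of run 1. Arc in NestinCre EAE 3 stood at 1.89 CPM in molecular layer interneurons, against 0.263 to 0.461 CPM, from 3 UMIs. fl EAE 4 and NestinCre EAE 4 are the EAE libraries of run 2, so within their groups the library and the run cannot be told apart.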

How the results depend on the processing

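The 4 called members held their sign under every alternative, but not their calls. The count of called pairs of member and class by genotype in EAE, 4 as reported, was 9 with no filter on low counts, 7 in run 1 alone, 2 with the replicate block, 1 with no run term, 0 with NestinCre EAE 1 and 2 both left out (chosen after seeing the data) and 1 to 7 with each EAE library left out. With no run term Egr1 stood at 0.66 in granule cells and 1.91 in molecular layer interneurons and Junb at 1.71 in the latter, none called. With the replicate block, which pairs samples by number, Egr1 in granule cells stood at 0.64 (adjusted p = 0.088) and Junb in molecular layer interneurons at 1.64 (adjusted p = 0.105). The correlations of deviations of same-numbered run 1 samples were 0.0756, -0.0379 and -0.081 in granule cells and -0.0459, 0.333 and 0.402 in all nuclei. Since not every pair passed 0.1, the numbers were not taken to pair the samples, although in all nuclei replicates 2 and 3 each correlated best with their own number. DESeq2 gave 1.59 for Junb in molecular layer interneurons and 1.12 in microglia, and run 1 alone 1.07 in microglia, none called. The pairs that DESeq2 called were Egr1 in granule cells, Egr1 in molecular layer interneurons and Junb in mature oligodendrocytes. With both NestinCre libraries left out the 4 values were 0.46, 1.86, 1.49 and 1.08, none called. Leaving out 1 library gave 0.56 to 0.74 for Egr1 in granule cells, 1.62 to 2.20 for Egr1 and 1.29 to 1.97 for Junb in molecular layer interneurons, and 0.94 to 1.45 for Junb in microglia. Among these, the fits without fl EAE 4 or NestinCre EAE 4 rest on run 1 alone.

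For EAE against naive, 0 as reported, the count was 1 with DESeq2, 7 with fl samples only (run 2's 1 library against 1), 4 with no filter, 2 with NestinCre EAE 1 and 2 left out and 0 to 1 with 1 library left out. No filter gave 1 call in naive mice and 5 for the interaction.

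All genes called by genotype in EAE, 605 in all nuclei, came to 230 without NestinCre EAE 1 and 2 and 153 to 627 leaving out 1 library. In granule cells 195 became 344 with DESeq2, 355 with no filter, 42 with the replicate block, 0 without both libraries and 2 to 310 leaving out 1. In molecular layer interneurons 19 became 31 with DESeq2, 32 with doublets kept, 244 with no filter, 63 in run 1 alone, 38 under 6000 UMIs, 9 without both and 17 to 74 leaving out 1. In microglia 455 became 700 with no filter and 323 to 478 leaving out 1. For EAE against naive, 0 became 140 with DESeq2 in all nuclei, with 0 to 1 leaving out 1 library. In granule cells it became 15 with DESeq2, 25 with fl samples only, 30 with no run term and 0 to 27. The naive genotype count became 0 to 1 and the interaction 2 with DESeq2.

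Uncalled genotype differences that changed sign in granule cells did so mostly without NestinCre EAE 1 and 2: Fos -0.66, Fosb -0.23, Npas4 -0.43, Nr4a1 -0.37, Nr4a3 -1.19, Ier2 -0.26 and Jun 0.12. Leaving out 1 library gave Jun -0.11 to 0.069 and Ier2 -0.064 to 0.18, and run 1 alone gave Jun 0.055. For EAE against naive, Jun was -0.24 and Arc -0.35 with no run term, and Jun -0.079 in run 2 alone. With EAE libraries alone 0 members passed the level test, in which 8 libraries allow a smallest p of 0.00781. Adjusted over 10 members, that p could not pass for 1 member alone. The highest class was the same in 10 of 10 members with EAE libraries alone, 7 with naive libraries alone and 7 by thinned shares. By thinned shares it changed for Jun, Npas4 and Ier2. fl EAE 3 lay above the median in 1 class with Nr4a1 or Ier2 left out. Fits without 1 naive library could not be estimated, 42 in all. The cause of these changes was not tested. Members of under 30 UMIs per class and library, such as Junb in microglia of fl EAE libraries, are limited by depth.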
